A study of Mus musculus with 6 samples.

Results

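The FOXO transcription factors and the ubiquitin ligases of muscle atrophy were examined as a set of 8 genes, namely Foxo1, Foxo3, Foxo4, Trim63, Trim54, Trim55, Fbxo32 and Fbxo30. Each gene was found by its symbol in a table of promoter windows, in which all 8 of the 8 listed genes had a row among 49366 windows. Accessibility had been measured by ATAC-seq, where a transposase inserts adapters into open chromatin, in nuclei sorted for PCM1, a protein that surrounds the nuclei of muscle fibres. The 6 libraries came from the hindlimbs of male C57BL/6J mice, 8 weeks old when AAV6 vectors were given and studied 28 days later. In the 3 Yap-shRNA replicates the vector carried a short hairpin RNA against Yap, and in the 3 LacZ-shRNA control replicates it carried a hairpin against a bacterial gene. Both groups therefore received AAV6 and a hairpin, opposite limbs received opposite vectors, and each replicate pooled 4 gastrocnemius and 4 tibialis anterior muscles. Yap is the transcriptional coactivator of the Hippo pathway and binds DNA through TEAD factors. The question was whether loss of Yap moved open chromatin at these genes.

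FOXO factors are forkhead transcription factors that Akt phosphorylation holds in the cytoplasm when insulin or IGF1 is present, and that enter the nucleus when this signal falls. In fasted, denervated or glucocorticoid-treated muscle they switch on ligases that tag muscle proteins with ubiquitin for the proteasome. Trim63 encodes MuRF1, which tags myosin and other thick filament proteins, and Fbxo32 encodes atrogin-1, the substrate receptor of an SCF ligase, and both genes are the usual molecular markers of atrophy.

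Promoter sequence was matched to RefSeq (GRCm38.p6) for 5 of the 8 genes, Foxo1, Foxo3, Trim63, Trim54 and Fbxo30. The promoters of Trim63 and Trim54 are printed because they were the ones among these 5 that held any of the motifs searched in the 250 bases before the RefSeq start. The motifs were GTAAACA and CAAAACA for FOXO, TGTTCT for a half-site of the glucocorticoid receptor, ACATTCC for TEAD, CAGCTG for an E-box and the MEF2 consensus, each on both strands, and capitals mark the matches. The Trim63 sequence lies at chr4:134314870-134315119 and the Trim54 sequence at chr5:31116362-31116611, both on the plus strand and upstream of the transcribed gene.
Trim63: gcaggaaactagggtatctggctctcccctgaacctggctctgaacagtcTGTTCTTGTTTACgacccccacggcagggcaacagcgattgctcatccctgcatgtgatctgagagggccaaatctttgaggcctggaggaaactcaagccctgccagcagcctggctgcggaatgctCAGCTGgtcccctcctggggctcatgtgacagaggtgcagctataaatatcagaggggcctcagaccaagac
Trim54: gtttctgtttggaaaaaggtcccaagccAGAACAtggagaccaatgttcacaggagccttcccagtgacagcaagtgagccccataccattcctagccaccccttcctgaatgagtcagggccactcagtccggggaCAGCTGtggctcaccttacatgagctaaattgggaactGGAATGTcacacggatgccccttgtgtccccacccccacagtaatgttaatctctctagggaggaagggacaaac

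The Trim63 promoter held a glucocorticoid receptor half-site that began 200 bases before the start and, directly after it with no base between, a FOXO match that began 194 bases before the start and reads TGTTTAC on this strand. A GTAAACA match was present in 3.17% of 32851 RefSeq promoters of the same length, TGTTCT in 16.1%, both in 0.691%, and both within 3 bases of each other in 7 promoters (0.0213%). That the matches adjoin was noticed after the sequence was read. An E-box began 72 bases before the Trim63 start. The Trim54 promoter held a half-site 222 bases, an E-box 113 bases and a TEAD match 75 bases before the start, the latter reading GGAATGT on this strand. CAGCTG was present in 13.0% of promoters and ACATTCC in 3.25%. No exact palindrome of AGAACA and TGTTCT with 3 bases between was found in the 5 promoters, and inexact ones were not searched. In the printed Trim63 sequence, tgaaca stands 3 bases before the TGTTCT match and differs from AGAACA in its first letter. Both of these promoters were poor in CpG, with 4 sites at Trim63 and 2 at Trim54. Sequences of the same length held 20 at Foxo1, 31 at Foxo3 and 40 at Fbxo30, and none of the motifs. That absence covers these short sequences only, since the wider promoter peaks of Foxo1, Foxo3 and Fbxo30 held matches, given below. The Fbxo30 sequence (chr10:11281337-11281586) lies inside the annotated gene, which starts at 11281330. That of Foxo3 (chr10:42276696-42276945) lies partly inside its gene, so neither describes upstream sequence alone. A match describes letters only and is not evidence that a factor was bound.

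None of the 8 promoter windows passed the test between Yap-shRNA and LacZ-shRNA muscles. A window was taken to cover 1 kb upstream and downstream of all transcript starts annotated for a gene. Its level is given in CPM (counts scaled to a common library size, with TMM factors). A call is an adjusted p under 0.05 by edgeR's quasi-likelihood test over all windows. Calls numbered 0 of 8 genes against 0.0223% of all windows. At an unadjusted p under 0.05 the count was again 0 of 8 against 4.9% of all windows, and in 0 of 8 genes were the groups free of overlap, against 10.1%. Limma voom and edgeR's likelihood-ratio test also called 0 of 8. DESeq2 called 0 of the 4 windows to which it gave an adjusted p (Foxo3, Trim63, Trim54 and Trim55) and gave none for the other 4. Of the 8 log2 fold changes (Yap-shRNA against LacZ-shRNA), 7 were below 0 and 1 was above, with a median of -0.12 beside -0.01 over all windows, 52.7% of which were below 0. In bulk libraries, fewer open nuclei and less accessibility per nucleus cannot be told apart.

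Depth and sample identity bear on all of these values. Window counts per library were fewest in LacZ-shRNA replicate 2 (3326803) and most in Yap-shRNA replicate 2 (10319467), and every replicate pair differed beyond sampling noise (lowest chi-square per feature 1.95). The window of Yap1, the targeted gene, did not pass (log2 fold change 0.04, SE 0.18, edgeR adjusted p 0.99), and a hairpin RNA acts on transcripts, so this checks no label. Of 10 muscle fibre markers, all 10 had counts, with a median at the 95.5th percentile of protein-coding windows per kb, and the medians of the satellite cell, fibroblast, endothelial and leukocyte lists (5 genes each) stood at percentiles 33.0, 23.3, 52.0 and 45.3. The lists overlapped, since single fibre markers ran from percentile 31.5 to 99.9. The other lists, in the same order, ran from 7.91 to 71.4, 12.8 to 76.2, 30.8 to 68.7 and 20.1 to 81.8. None of the 30 markers was at 0 or was called. Summed fibre marker levels were 1230 to 1710 CPM in LacZ-shRNA and 1330 to 1520 CPM in Yap-shRNA libraries, and those of leukocyte markers 84.1 to 99.0 and 94.0 to 101 CPM. Median log2 fold changes were -0.10 for fibre, -0.08 for satellite cell, -0.12 for fibroblast, -0.17 for endothelial and 0.25 for leukocyte markers, and the part of these cells in the results was not tested.

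Foxo1, the factor most studied in insulin signalling, lies at chr3:52268336-52353221 on the plus strand. Its window held 16.8, 20.8 and 26.8 CPM in LacZ-shRNA replicates 1, 2 and 3, and 18.9, 15.5 and 19.2 CPM in Yap-shRNA libraries. Yap-shRNA replicate 2 was the lowest library and LacZ-shRNA replicate 3 the highest, and the groups overlapped. The log2 fold change was -0.29 (SE 0.17, adjusted p = 0.946 by edgeR). This window overlaps that of Gm20402, an antisense gene, and held 32.9% as many counts as the promoter peak, so the peak is the fuller measure.

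Of the 7 promoter peaks, that of Foxo1 (chr3:52267519-52270590) had the log2 fold change furthest from 0. It held 80.2, 90.4 and 109 CPM in the controls and 69.7, 74.5 and 83.4 CPM after Yap-shRNA. Yap-shRNA replicate 3 exceeded LacZ-shRNA replicate 1, while the other control libraries stood above every Yap-shRNA library. Its log2 fold change of -0.31 (SE 0.13, interval -0.57 to -0.06) did not pass over all peaks (adjusted p = 0.414 by edgeR). The other peak linked to Foxo1, in an intron at chr3:52327592-52329719, had a log2 fold change of 0.12 (SE 0.15, adjusted p = 0.903 by edgeR).

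Foxo3, a main driver of atrogin-1 and of autophagy genes in muscle, lies at chr10:42181841-42276755 on the minus strand. Its window held 53.7, 59.3 and 76.8 CPM in LacZ-shRNA libraries and 53.2, 56.9 and 49.3 CPM in Yap-shRNA libraries. LacZ-shRNA replicate 3 stood above the rest, and LacZ-shRNA replicate 1 lay among the Yap-shRNA libraries. The log2 fold change was -0.26 (SE 0.14, adjusted p = 0.946 by edgeR), with an approximate 95% interval of -0.54 to 0.01.

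All 4 peaks linked to Foxo3 had log2 fold changes below 0, with a median of -0.26, although none of the 4 passed and none had an unadjusted p under 0.05. The promoter peak (chr10:42275969-42278713) held 86.0, 83.2 and 113 CPM in the controls and 87.2, 94.1 and 77.6 CPM after Yap-shRNA, a log2 fold change of -0.14 (SE 0.13, adjusted p = 0.85 by edgeR). The intron peak with the smallest p (chr10:42204703-42205605) held 20.8, 26.7 and 27.1 CPM in the controls and 18.6, 20.6 and 21.7 CPM after Yap-shRNA. There the lowest control replicate fell inside the Yap-shRNA range, and the log2 fold change was -0.30 (SE 0.16, adjusted p = 0.585 by edgeR). The other intron peaks stood at -0.22 and -0.34. The shared direction held for peaks within 20 kb only. A peak 33306 bp from the nearest Foxo3 start (chr10:42310061-42310903) stood at 0.33 (SE 0.19, adjusted p = 0.642 by edgeR).

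Foxo4, the X-linked member of the family, lies at chrX:101254528-101260873 on the plus strand and had no promoter peak. Its window held 13.0, 17.6 and 18.6 CPM in LacZ-shRNA libraries and 12.5, 13.2 and 16.3 CPM in Yap-shRNA libraries. The lowest control library was below 2 of the 3 Yap-shRNA libraries, and the log2 fold change was -0.23 (SE 0.18, adjusted p = 0.949 by edgeR). The sole peak within 20 kb of Foxo4 belonged to the promoter of its neighbour Med12, at -0.19 (SE 0.16, adjusted p = 0.826 by edgeR).

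**Figure D1:**
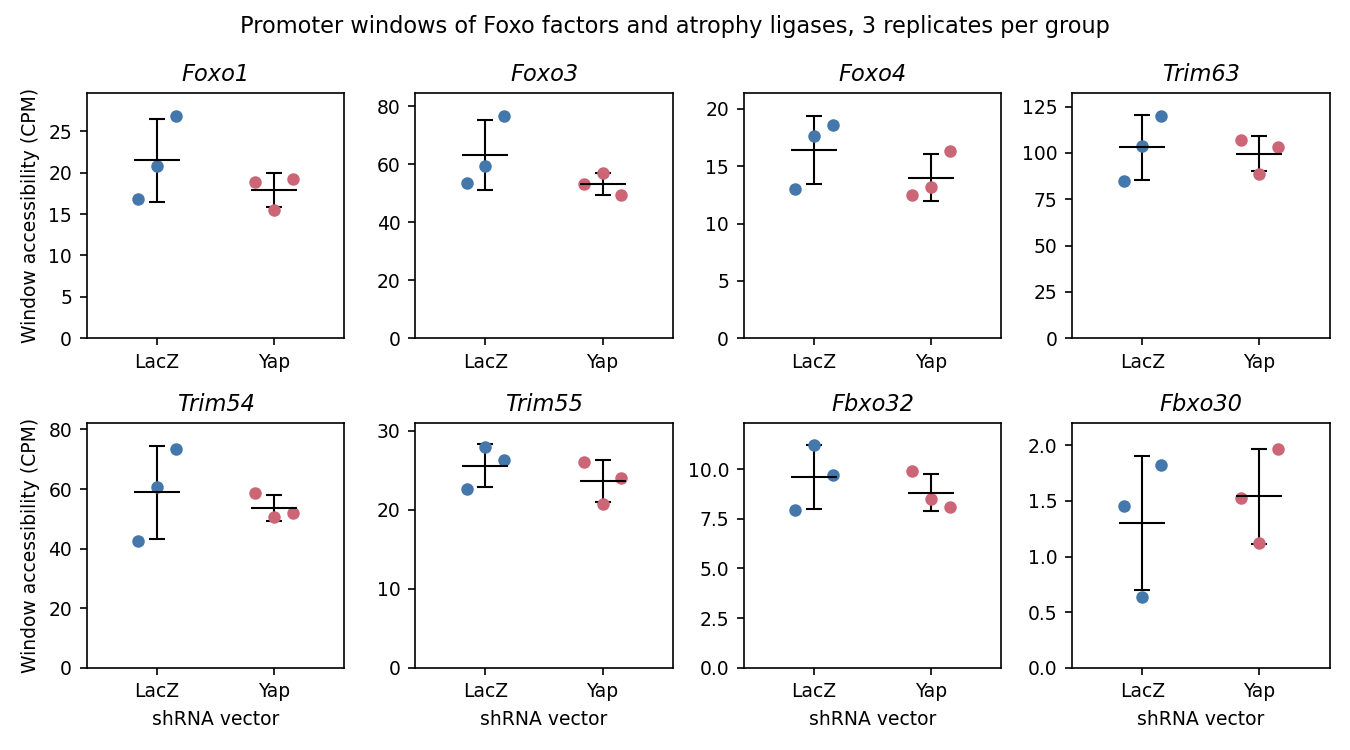
Promoter window accessibility (CPM, axes from 0) of the 8 genes in each library, with LacZ-shRNA in blue and Yap-shRNA in red. Points are replicates 1 to 3 from left to right, and the black bars are the group mean and SD (n = 3). The groups overlap in all 8 panels, and LacZ-shRNA replicate 1 is the lowest control library in 7 of them.

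The window of Trim63 held 85.0, 104 and 120 CPM in LacZ-shRNA libraries and 107, 88.8 and 103 CPM in Yap-shRNA libraries. All Yap-shRNA values fell inside the range of the controls, and the log2 fold change was -0.06 (SE 0.14, adjusted p = 0.984 by edgeR). The gene lies at chr4:134315120-134329629 on the plus strand, and its window as defined here also takes in a second group of transcript starts inside the gene. The promoter peak (chr4:134313986-134316058), which contains the adjoining half-site and FOXO match printed above, held 66.8, 67.5 and 83.4 CPM in the controls and 76.9, 72.7 and 76.9 CPM after Yap-shRNA. Here too the groups overlapped, with a log2 fold change of 0.04 (SE 0.12, adjusted p = 0.972 by edgeR).

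Trim54 encodes MuRF3, which binds microtubules and the sarcomere, and lies at chr5:31116712-31137630 on the plus strand. Its window held 42.5, 60.6 and 73.5 CPM in LacZ-shRNA libraries and 58.7, 50.6 and 51.9 CPM in Yap-shRNA libraries. The controls spanned a wider range than the Yap-shRNA libraries and enclosed all of them, and the log2 fold change was -0.14 (SE 0.15, adjusted p = 0.957 by edgeR). The promoter peak (chr5:31115631-31117545) held 62.7, 78.1 and 93.7 CPM in the controls and 81.8, 74.1 and 72.1 CPM after Yap-shRNA, at -0.05 (SE 0.13, adjusted p = 0.965 by edgeR). The TEAD match of the Trim54 promoter lies in this peak.

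Trim55 encodes MuRF2, a partner of titin in the sarcomere, and lies at chr3:19644474-19692421 on the plus strand. Its window held 22.6, 27.9 and 26.3 CPM in LacZ-shRNA libraries and 26.1, 20.8 and 24.0 CPM in Yap-shRNA libraries, a log2 fold change of -0.11 (SE 0.15, adjusted p = 0.968 by edgeR). The groups overlapped, as they did at the promoter peak (chr3:19644001-19644775), which held 22.2, 20.8 and 23.0 CPM in the controls and 21.9, 19.9 and 20.2 CPM after Yap-shRNA, at -0.10 (SE 0.15, adjusted p = 0.927 by edgeR). All 5 peaks linked to Trim55 were below 0, none of the 5 with an unadjusted p under 0.05. The one with the smallest p apart from the promoter peak was at the promoter of 1700064H15Rik (chr3:19627675-19629535), with 76.9, 72.2 and 82.6 CPM in the controls and 76.9, 66.7 and 61.0 CPM after Yap-shRNA, at -0.19 (SE 0.12, adjusted p = 0.734 by edgeR). Beyond 20 kb, a peak 43430 bp from the nearest Trim55 start stood at 0.02 (SE 0.36, adjusted p = 0.996 by edgeR).

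Fbxo32 lies at chr15:58175879-58214932 on the minus strand, and its window held few counts. These were 44, 35 and 85 in LacZ-shRNA libraries and 97, 91 and 70 in Yap-shRNA libraries, or 7.96, 11.2 and 9.68 CPM against 9.88, 8.47 and 8.11 CPM. The groups overlapped and the log2 fold change was -0.10 (SE 0.2, adjusted p = 0.981 by edgeR). The window overlaps that of the antisense gene Gm15943 and held 13.6% as many counts as the promoter peak. That peak (chr15:58213380-58216194) held 81.6, 96.8 and 99.4 CPM in the controls and 101, 95.5 and 85.8 CPM after Yap-shRNA, with LacZ-shRNA replicate 1 the lowest library and Yap-shRNA replicate 1 the highest. Its log2 fold change was 0.02 (SE 0.13, adjusted p = 0.986 by edgeR), with an interval of -0.23 to 0.27. A peak over an exon (chr15:58203539-58206253) also overlapped between groups, at 0.11 (SE 0.13, adjusted p = 0.894 by edgeR).

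Fbxo30 encodes MUSA1, a substrate receptor of an SCF ligase that is restrained by BMP signalling in muscle, and lies at chr10:11281330-11298052 on the plus strand. Its window held only 8, 2 and 16 counts in LacZ-shRNA libraries and 15, 12 and 17 in Yap-shRNA libraries, 3.06% of the counts of its promoter peak, and it overlaps the window of the bidirectional lncRNA 4930432B10Rik. The window values were 1.45, 0.641 and 1.82 CPM in the controls and 1.53, 1.12 and 1.97 CPM after Yap-shRNA, and the log2 fold change of 0.06 had an SE of 0.43 (adjusted p = 0.993 by edgeR). The approximate 95% interval, -0.78 to 0.90, was the widest of the 8 windows. The promoter peak (chr10:11280469-11281957) held 61.3, 63.7 and 78.4 CPM in the controls and 75.7, 65.9 and 63.0 CPM after Yap-shRNA, which overlapped, with a log2 fold change of -0.01 (SE 0.13, adjusted p = 0.996 by edgeR). A flanking peak upstream (chr10:11274362-11274928) stood at -0.23 (SE 0.18, adjusted p = 0.8 by edgeR).

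**Figure D2:**
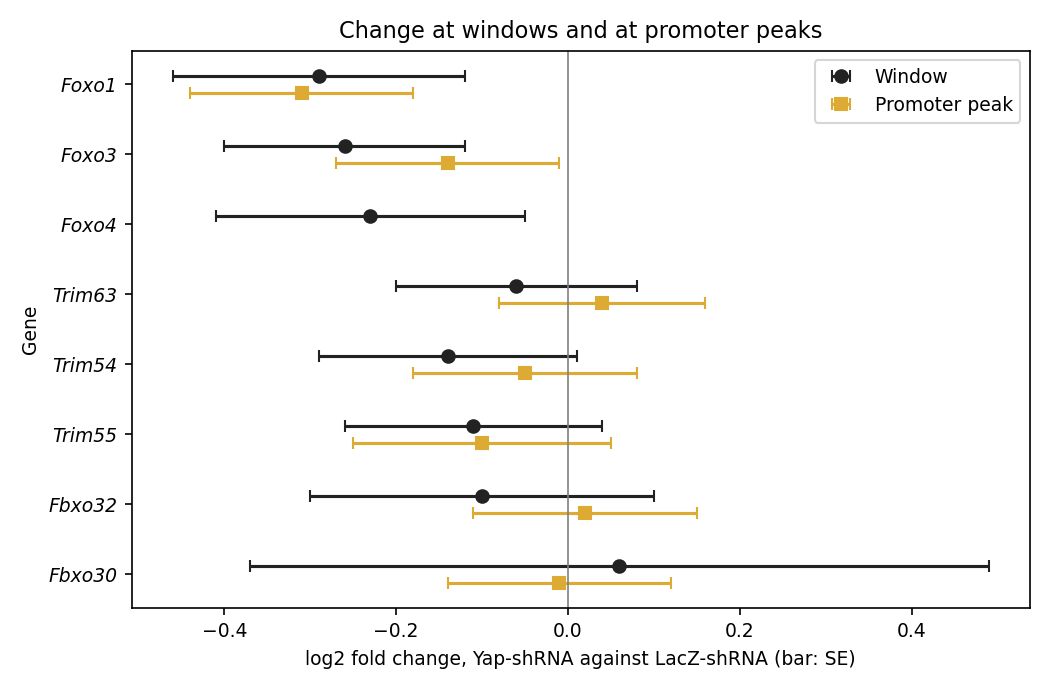
Log2 fold change of Yap-shRNA against LacZ-shRNA at the promoter window (black circles) and promoter peak (yellow squares) of each gene, with bars for the SE of the edgeR fit on 3 replicates a group. Foxo1 stands at -0.29 and -0.31 on these measures, the Fbxo30 window has the widest bar (SE 0.43), and Foxo4 had no promoter peak.

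The order of levels depended on which of the 2 tables was read. Per kb of window, Trim54 (27.8 CPM per kb) and Trim63 (24.8) stood highest and their ranges over the 6 libraries overlapped, at percentiles 99.2 and 98.8 of protein-coding windows. The range of Trim63 did not reach that of Foxo3 (14.3), which was followed by Trim55 (12.1), Foxo1 (9.83), Foxo4 (6.63) and Fbxo32 (4.61), each overlapping its neighbour. Fbxo30 (0.629 CPM per kb) lay apart from and below Fbxo32, at percentile 0.38. In the peak table, which was scaled separately, Fbxo30 instead led the 7 promoter peaks at 45.7 CPM per kb, then came Trim54 (40.2), Trim63 (35.7), Fbxo32 (33.2), Foxo3 (32.8), Foxo1 (27.5) and Trim55 (27.5), and every neighbour in that order overlapped. Fbxo30 stood last by window and first by peak and Fbxo32 moved from 7 to 4, and these were the genes whose windows shared the most sequence with another gene's window, with 16.2% and 22.8% of the window unshared.

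The clearest difference at these genes was not at a promoter but at the 3′ end of Trim63, where accessibility was higher after Yap-shRNA. A peak of 3989 bp at chr4:134327459-134331447 covers the last exons with the 3′ UTR and runs past the end of the gene. It starts 7471 bp from the nearest Trim63 transcript start and lies at the promoter of no other protein-coding gene. Starts of non-coding genes were not checked. The peak held 66.8, 86.6 and 96.3 CPM in LacZ-shRNA libraries and 119, 117 and 134 CPM in Yap-shRNA libraries. Every Yap-shRNA library was above every LacZ-shRNA library, with means of 83.3 ± 15.0 and 123 ± 9.27 CPM (SD, n = 3 each). The log2 fold change was 0.56 (SE 0.14, adjusted p = 0.034 by edgeR), a 1.47-fold rise.

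This was the 1 peak called among 28 within 20 kb of the 8 genes, against 0.618% of all 36097 peaks called in either direction and 0.0471% called higher. Of the 17 peaks called higher in the whole table, the Trim63 peak had the highest level, 103 CPM over the 6 libraries beside 11.2 to 71.3 CPM in the others, and was the widest. Its fold change ranked only 15 of 17. The call rested on the full set of libraries. It was lost, at an edgeR adjusted p of 0.0869 to 0.211, when LacZ-shRNA replicate 1 or 2 or any Yap-shRNA replicate was left out, and strengthened without LacZ-shRNA replicate 3 (0.00306). With the scaling factors of the window table the adjusted p was 0.387. Over all 16 alternative fits the log2 fold change stayed between 0.42 and 0.70, with an unadjusted p under 0.05 in 16 of 16. The 10 features with the most counts took 17.4%, 18.2% and 11.5% of peak counts in LacZ-shRNA libraries and 9.44%, 9% and 12.4% in Yap-shRNA libraries, and the part of this in the result was not tested.

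The 3′ end and the promoter of Trim63 were compared within each library, which needs no scaling between libraries. Counts in the 3′ peak were 1.00, 1.28 and 1.16 times those in the promoter peak in LacZ-shRNA libraries, and 1.55, 1.61 and 1.74 times in Yap-shRNA libraries. The ratios did not overlap, with means of 1.15 ± 0.142 and 1.63 ± 0.0988 (SD, exact permutation test, two-sided, p = 0.1, the smallest that 3 against 3 can give). Against each of the 8 other peaks within 50 kb of Trim63, the ratio was likewise higher in all Yap-shRNA libraries than in any control. These ratios were computed after the values of the peak had been seen and describe the same counts.

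**Figure D3:**
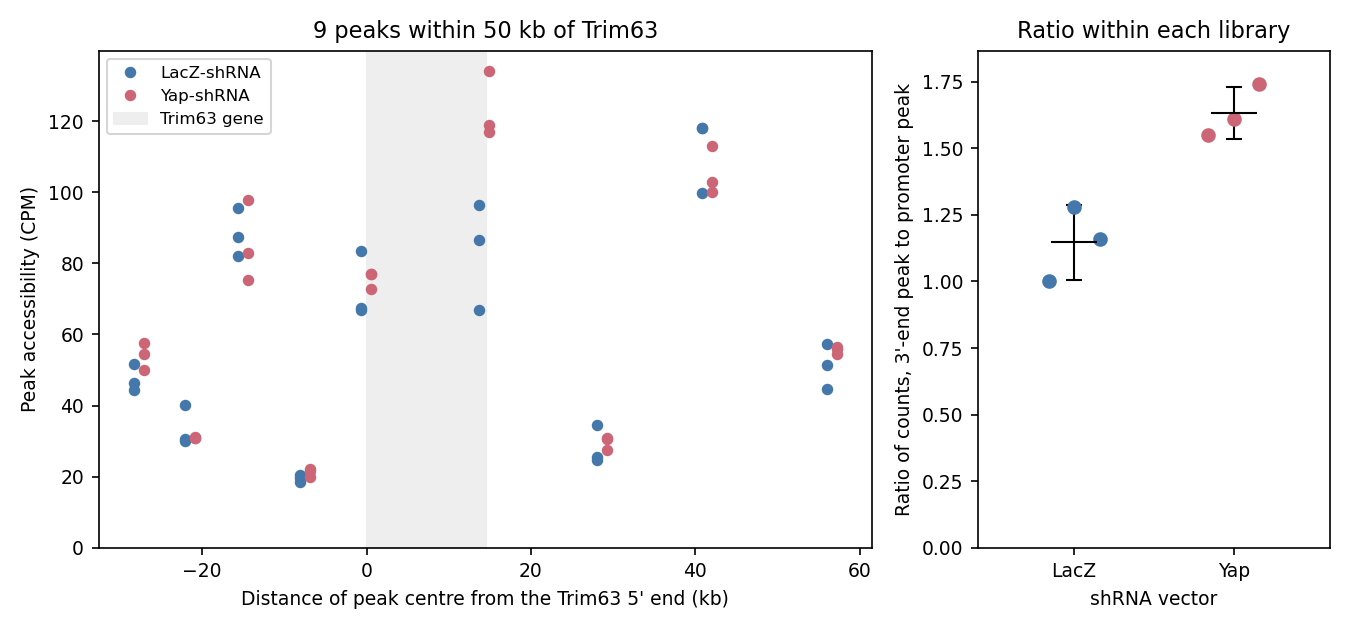
Left, accessibility (CPM) of the 9 peaks within 50 kb of Trim63 in each library against the distance of the peak centre from the 5′ end of the gene (kb), with LacZ-shRNA in blue and Yap-shRNA in red, set slightly to the left and right of the true position, and the gene in grey. Right, the ratio of counts in the 3′ peak to counts in the promoter peak by library, with mean and SD (n = 3). The groups are clear of each other at the 3′ peak (66.8 to 96.3 against 117 to 134 CPM) and overlap at the promoter peak.

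The 3′ peak held 1 TEAD match (ACATTCC), in a stretch beyond the gene at chr4:134331106-134331304, plus strand. It is printed because Yap reaches DNA through TEAD factors, with the match in capitals as it reads on the plus strand.
Trim63 3′ peak: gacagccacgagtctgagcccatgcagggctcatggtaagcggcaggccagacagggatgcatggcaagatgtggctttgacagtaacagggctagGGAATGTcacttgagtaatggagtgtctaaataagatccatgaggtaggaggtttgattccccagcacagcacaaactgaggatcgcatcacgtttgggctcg
The match starts 1573 bp past the end of the gene. Of 428 peaks of similar width, 34.6% held ACATTCC, so a match in so wide a peak was common. The peak also held 3 matches to TGTTCT (83.2% of peaks of similar width), 1 to CAAAACA (48.8%) and 1 to CAGCTG (81.1%), and none to GTAAACA (24.8%). The promoter peak of Trim63 held 2 matches to GTAAACA, against 12.9% of 3358 peaks of similar width with any, and none to ACATTCC.

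Across all 28 linked peaks the values spread around 0. There were 7 promoter peaks, 3 over exons, 7 in introns, 4 in flanking sequence and 7 at promoters of neighbouring genes. Of the 28, 18 were below 0, with a median of -0.06 beside 0.00 for all peaks (50.5% below 0). An unadjusted p under 0.05 was seen in 4 of 28 (14.3%, against 8.9% of all peaks), and groups did not overlap in 3 of 28 (10.7%, against 13.3%). Apart from the Trim63 3′ peak and the Foxo1 promoter peak, those with an unadjusted p under 0.05 both lay downstream of Trim54. One overlaps the 3′ end of Trim54 and the promoter of Ucn, which encodes the peptide urocortin, at chr5:31136268-31139523. It held 53.7, 70.1 and 68.2 CPM in the controls and 69.1, 80.6 and 80.7 CPM after Yap-shRNA, which overlapped, at 0.26 (SE 0.13, adjusted p = 0.542 by edgeR). The other was at the promoter of Mpv17, a mitochondrial inner membrane protein, where 37.8, 49.7 and 48.9 CPM in the controls stood below 54.4, 58.8 and 63.2 CPM after Yap-shRNA, at 0.37 (SE 0.13, adjusted p = 0.264 by edgeR). Neither passed over all peaks. Another linked peak at a promoter of Mpv17 (chr5:31152823-31155024) went the other way, also without overlap of the groups. It held 58.0, 57.7 and 60.2 CPM in the controls and 49.2, 52.9 and 54.4 CPM after Yap-shRNA. Its log2 fold change was -0.17 (SE 0.12, adjusted p = 0.756 by edgeR).

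**Figure D4:**
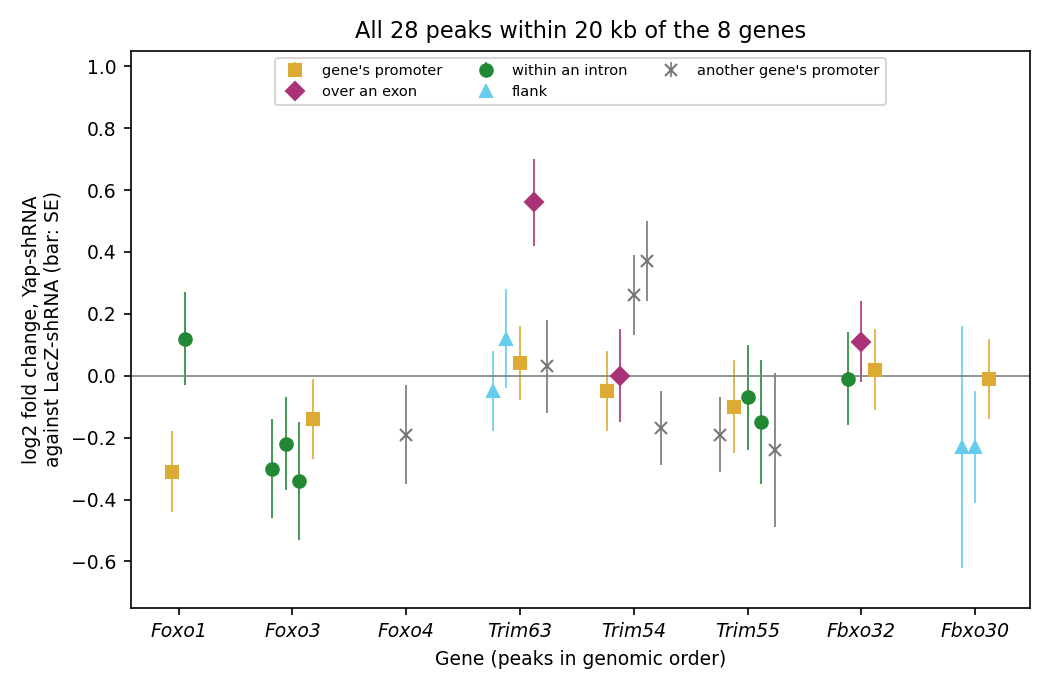
Log2 fold change of Yap-shRNA against LacZ-shRNA for all 28 peaks within 20 kb of the 8 genes, in genomic order within each gene, with bars for the SE of the edgeR fit. The exon peak of Trim63 (0.56) is the highest point and the single call. The 4 Foxo3 peaks and the 5 Trim55 peaks all lie below 0. The peaks downstream of Trim54 include points at 0.26, 0.37 and -0.17.

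LacZ-shRNA replicate 1 was the lowest control library at 7 of the 8 windows. It was also the lowest control at 37.7% of all windows, at 55.2% of windows of 10 CPM or more, where 6 of the 8 genes stood, and at 84.9% of the 4213 windows of 50 CPM or more, where 3 of the 8 stood. Without it, log2 fold changes of the Foxo1, Foxo3, Foxo4 and Trim54 windows became -0.47, -0.39, -0.39 and -0.35, and still 0 of 8 passed (lowest edgeR adjusted p 0.117, for Foxo3). Without LacZ-shRNA replicate 3, the highest control at these 4 windows, the same values became -0.055, -0.082, -0.097 and 0.085, so the size of each rested on single control libraries.

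The genes that act on FOXO factors were examined as a list of 28, of which 27 were in the window table. Of these 0 passed, beside 0.0223% of all windows, with 11 above and 16 below 0 and a median log2 fold change of -0.03. Of the 27 windows, 6 overlap another gene's window, those of Ep300 and Sirt3 among them. The member with the smallest p was Sgk1, a kinase that phosphorylates FOXO factors as Akt does. Its window held 166, 244 and 243 CPM in LacZ-shRNA libraries and 171, 164 and 183 CPM in Yap-shRNA libraries, at -0.33 (SE 0.15, adjusted p = 0.946 by edgeR). The acetyltransferase gene Ep300 stood at 0.26 and the deacetylase gene Sirt3 at 0.24, each with an edgeR adjusted p of 0.946.

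Among 27 measured of 28 genes known as FOXO targets, 0 passed, 7 were above and 20 below 0, the median was -0.07, and an unadjusted p under 0.05 was seen in 3 (11.1%, beside 4.9% of all windows), all 3 of them lower. Over all windows 52.7% were below 0, and 10 of these 27 windows, that of Txnip among them, overlap another gene's window. Ddit4, which restrains mTORC1, held 53.7, 72.1 and 88.6 CPM in the controls and 47.9, 49.2 and 58.4 CPM after Yap-shRNA, at -0.47 (SE 0.15, adjusted p = 0.946 by edgeR). A single control library, LacZ-shRNA replicate 1, lay inside the Yap-shRNA range. Txnip, which limits glucose uptake, stood at -0.35 and Pdk4, a kinase that inhibits pyruvate dehydrogenase, at -0.30, both with an edgeR adjusted p of 0.946. The calls at these lists turned on 1 library, since without LacZ-shRNA replicate 1 the windows of Sgk1 (-0.50, adjusted p = 0.000959 by edgeR), Ddit4 (-0.66, 8.71e-05) and Txnip (-0.57, 0.00332) passed. Leaving out this library also raised the calls over all 49366 windows, from 11 to 157, so the gain was not particular to these lists. With all libraries, or without any other single library, 0 genes of these lists were called.

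Other ubiquitin system genes of muscle, a list of 28 with all 28 measured, gave 0 calls, beside 0.0223% of all windows. An unadjusted p under 0.05 was seen in 0, beside 4.9% of all windows. There were 13 above and 15 below 0, with a median of -0.03. Of these 28 windows, 14 overlap another gene's window, those of Ube2b and Klhl40 among them. The genes with the smallest p were Ube2b (-0.32), a ubiquitin-conjugating enzyme, Klhl40 (-0.38), a muscle kelch protein, and Fbxo31 (-0.20), an F-box protein, with edgeR adjusted p-values of 0.946 to 0.949.

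The windows whose levels tracked Trim63 most closely over the 6 libraries were those of Slc22a23 (Pearson r = 0.997), Kat6b (0.995) and Get4 (0.992), out of 18390 protein-coding windows searched. A correlation of 0.9 or more with Trim63 was met by 383 windows (2.08%). For Fbxo32 the closest were Impg2 (0.997), Upk2 (0.993) and Rab14 (0.992), and 182 windows (0.99%) reached 0.9. With 6 libraries and this many windows, such values describe a shared order of libraries.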

How the data were processed

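ATAC-seq reads had been mapped by the authors to GRCm38 with BWA 0.7.17, duplicates removed with SAMtools 1.8, peaks called with MACS 1.4.2-1 and reads counted with featureCounts 1.5.0, as the study's methods and the submitters' processing notes give them. The authors deposited raw integer counts of reads per merged peak and per 1 kb promoter window, and the authors had removed rows with a mean count under 10. Whether a mapping quality limit was used for these tables is not given in the sources used here. Counts in the 36097 peaks totalled from 2588520 (LacZ-shRNA replicate 2) to 6871176 (LacZ-shRNA replicate 3) per library.

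Each table was fitted whole with edgeR 4.0.16 in R 4.3.3 (TMM factors, quasi-likelihood test, no covariate, Benjamini-Hochberg adjustment at 0.05). The SE is the size of the log2 fold change divided by the square root of the F statistic, and intervals are approximate. The labels number the replicates, the study's methods describe each as a pool of muscles, and p-values measure the spread between these pools. Opposite limbs received opposite vectors, and which pools share mice is not given in the labels. Windows were taken as 1 kb to each side of all GENCODE starts, since the sources used here do not state their full extent. Levels per kb of window and overlaps between windows depend on this choice. All 49366 matched the annotation by identifier, and 10344 overlap another gene's window, where counts are uncertain. Peaks were linked within 20 kb of the gene, as promoter peaks within 1 kb of a start. Motifs were exact matches. Same-numbered replicates were checked for pairing by the correlation of their deviations from group means, which was 0.191, -0.121 and 0.0923 in windows and 0.0155, -0.0931 and -0.139 in peaks, so the numbers were not taken as pairs. Low correlations cannot exclude that these replicates share mice. The 8 genes, the lists (written from general knowledge), the tests and the naming rule were chosen with earlier results of these data known. Genes were named as all 8 members, their promoter peaks and the smallest-p other peak of each, the 3 smallest p per list, and the 3 windows most correlated with Trim63 and Fbxo32 (mean count of at least 50). Other named peaks, and Nedd4l, Becn1, Bnip3, Gadd45a, were chosen after their values were seen. Results were recomputed with DESeq2 1.42.0, limma 3.58.1 voom, the likelihood-ratio test, 4 other scalings, features of mean count 50 or more, the top 1% removed, a threshold of 0.01, peaks within 50 kb, a replicate block and leaving out each library.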

Additional observations from a re-analysis of the deposited data

How the results depend on the processing

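The 8 windows gave 0 calls under every alternative tried. DESeq2 gave an adjusted p to 4 of them, and the mean count of at least 50 kept 7. The 3 gene lists gave 0 except without LacZ-shRNA replicate 1, where 1 FOXO regulator and 2 FOXO targets passed. Leaving out 1 library thus gave 0 to 1 and 0 to 2. DESeq2 gave no adjusted p to 2 of 27 FOXO regulators, 4 of 27 FOXO targets and 6 of 28 other ubiquitin genes. The same held for 5 of the 28 linked peaks. The count of 1 linked peak became 0 with the factors of the other table, at a threshold of 0.01 and in 5 of the 6 fits that left out a library (range 0 to 1). Window calls over the table went from 11 to 33 with the likelihood-ratio test or the abundance offset, 20 with DESeq2, 23 with limma voom and 7 without the top 1%, and from 4 to 157 when a library was left out (157 without LacZ-shRNA replicate 1, 5 and 4 without Yap-shRNA replicates 1 and 2). Peak calls went from 223 to 378, 116, 144 and 136 with the likelihood-ratio test, DESeq2, the abundance offset and a mean count of at least 50, to 103 at 0.01, and from 94 to 447 without a library (447 without LacZ-shRNA replicate 3, 132 without LacZ-shRNA replicate 2, 94 without Yap-shRNA replicate 1 or 2). Scaling by library size alone moved the median of all peaks to 0.14 and the share of lower calls from 92.4% to 45.9%. The cause was not tested.

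Directions turned at values near 0. With library size alone the log2 fold change was 0.008 at the Trim63 window and 0.003, 0.088, 0.034 and 0.135 at the promoter peaks of Foxo3, Trim54, Trim55 and Fbxo30. With the factors of the other table it was 0.021 at the Trim63 window and -0.033 and -0.058 at the promoter peaks of Trim63 and Fbxo32, and with the abundance offset 0.022 at that of Fbxo30. Leaving out libraries gave ranges of -0.19 to 0.078 (Trim63), -0.35 to 0.085 (Trim54) and -0.14 to 0.40 (Fbxo30) at windows, and of -0.21 to 0.028 (Foxo3), -0.025 to 0.17 (Trim63), -0.20 to 0.13 (Trim54), -0.061 to 0.089 (Fbxo32) and -0.088 to 0.13 (Fbxo30) at promoter peaks. The windows of Foxo1, Foxo3, Foxo4, Trim55 and Fbxo32 and the Foxo1 promoter peak stayed below 0 in all 16 alternatives, but without LacZ-shRNA replicate 3 stood at -0.055, -0.082, -0.097, -0.078, -0.073 and -0.164.

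With the replicate number as a block, 0 of 8 windows, 1 linked peak (Trim63 3′ peak, 0.58, edgeR adjusted p 0.0484), 13 windows and 207 peaks were called, and the Fbxo30 promoter peak stood at 0.005. Whether same-numbered replicates share mice is not given in the labels, so this block may or may not match the true pairing. The Fbxo30 window is the one without a value at a mean count of at least 50. With 2 to 17 counts per library at that window and the LacZ-shRNA replicates 1 and 2 the shallowest, the SE there (0.43) was the highest of the 8 windows.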

Other observations

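Groups did not overlap at 5 of the 82 measured genes of the FOXO and ubiquitin lists (6.1%, beside 10.1% of all windows), and none of the 5 passed (edgeR adjusted p of 0.946 to 0.951). Becn1, which starts autophagy, held 49.6, 58.0 and 51.5 CPM in LacZ-shRNA libraries and 61.9, 58.6 and 63.9 CPM in Yap-shRNA libraries, a log2 fold change of 0.22 (SE 0.13). Sirt3 stood at 0.24 and Nedd4l, a HECT ubiquitin ligase, at 0.16, each with every Yap-shRNA library higher. Bnip3, a mitophagy receptor, held 50.3, 62.2 and 61.1 CPM in the controls and 47.9, 49.3 and 50.2 CPM after Yap-shRNA, at -0.23 (SE 0.13), and Gadd45a, a stress gene of atrophying muscle, stood at -0.32, each with every Yap-shRNA library lower. The windows of Sirt3, Bnip3, Gadd45a and Nedd4l overlap that of another gene.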
